A study of Homo sapiens with 6 samples.

Results

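The mitochondrial ribosomal protein genes were the 78 protein-coding genes whose symbol is MRPL or MRPS followed by a number and at most 1 letter, of 60609 genes listed. They were measured by stranded sequencing of polyadenylated RNA in OCI-AML5, an established cell line of human acute myeloid leukemia. The 3 DMSO libraries came from cells given the solvent alone and the 3 S767 libraries from cells given 1 μM S767, a small molecule with anti-leukemic activity, both for 24 hours. No genotype, allele or second agent differs between the groups in the labels, all libraries represent the same cell line, and the methods state that the S767 treatment was done in triplicate but not whether these were independent experiments, so p-values measure the spread between these libraries. Of the 78 genes, 51 encode proteins of the large subunit and 26 proteins of the small subunit. MRPS36 has the name of a ribosomal protein but is now known as a component of the alpha-ketoglutarate dehydrogenase complex, and it was kept because the symbol chose the members.

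The mitochondrial ribosome translates the few messenger RNAs that mitochondrial DNA encodes, which specify core subunits of the respiratory chain and of ATP synthase. Its ribosomal RNAs come from mitochondrial DNA, whereas every one of its proteins is encoded in the nucleus, made in the cytosol and imported. Some of these proteins have a counterpart in bacterial ribosomes and others are specific to mitochondria. Acute myeloid leukemia cells are known to depend on mitochondrial translation and respiration.

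Short sequence motifs at the gene starts were examined first, a feature that the symbol rule did not use. RefSeq windows of GRCh38.p14, from 250 bases before the annotated start to 50 after it, were found for 69 of the 78 members. The windows below are shown for MRPS30, the member with the lowest P value, MRPL50, the member of lowest level, MRPS34, a member of high level with 3 ETS matches, as many as MRPS22 and more than any other member, and MRPL46, which starts close to MRPS11 on the opposite strand. They were chosen after the values were seen. Capitals mark matches to AAGATGGCG, a motif bound by YY1, in MRPS30, MRPL46 and MRPL50, and to CCGGAAG, the core bound by ETS factors such as GABPA, in MRPS34, where it is read on the opposite strand as CTTCCGG.

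MRPS30, chr5:44808697-44808996, plus strand: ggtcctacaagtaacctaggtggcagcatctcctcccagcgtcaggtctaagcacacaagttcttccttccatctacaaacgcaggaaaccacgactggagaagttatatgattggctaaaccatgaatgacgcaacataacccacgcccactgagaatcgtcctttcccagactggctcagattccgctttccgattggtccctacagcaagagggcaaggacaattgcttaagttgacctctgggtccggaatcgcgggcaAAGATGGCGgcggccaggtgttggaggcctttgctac
MRPL50, chr9:101398569-101398868, minus strand: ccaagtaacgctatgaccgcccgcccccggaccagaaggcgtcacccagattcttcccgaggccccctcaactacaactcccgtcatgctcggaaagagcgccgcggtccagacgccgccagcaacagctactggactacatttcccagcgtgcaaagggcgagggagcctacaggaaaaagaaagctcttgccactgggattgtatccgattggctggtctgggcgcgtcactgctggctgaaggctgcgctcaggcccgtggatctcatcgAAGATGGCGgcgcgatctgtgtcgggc
MRPS34, chr16:1773085-1773384, minus strand: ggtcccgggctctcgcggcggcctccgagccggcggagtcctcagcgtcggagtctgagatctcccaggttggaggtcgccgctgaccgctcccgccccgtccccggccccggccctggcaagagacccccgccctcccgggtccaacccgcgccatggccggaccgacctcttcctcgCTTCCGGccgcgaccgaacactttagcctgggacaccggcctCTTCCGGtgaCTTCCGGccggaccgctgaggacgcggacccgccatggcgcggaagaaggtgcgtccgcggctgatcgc
MRPL46, chr15:88467339-88467638, minus strand: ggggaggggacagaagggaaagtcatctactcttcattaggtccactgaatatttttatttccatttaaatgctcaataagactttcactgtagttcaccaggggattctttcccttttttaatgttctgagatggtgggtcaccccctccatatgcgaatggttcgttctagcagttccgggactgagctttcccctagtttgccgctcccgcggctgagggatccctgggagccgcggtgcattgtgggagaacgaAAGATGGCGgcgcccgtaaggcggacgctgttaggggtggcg

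The YY1 letters began 14 bases into the MRPS30 transcript, 9 bases into MRPL46 and 24 bases into MRPL50. In MRPS34 the ETS letters began 71, 29 and 19 bases before the start. Both strands were searched. CCGGAAG was present in 29 of the 69 member windows, or 42.0%, against 10.7% of all 27305 windows and 18.3% of the 12043 windows of genes tested here. AAGATGGCG was present in 13 member windows, or 18.8%, against 1.85% of all windows and 3.69% of those of tested genes. Its first base lay between 10 bases before and 49 bases after the start in 10 of the 13. AAGATGGCG contains the letters ATG, and whether these matches lie at translation starts was not examined. The motif of NRF1, a regulator of nuclear genes for mitochondria, searched as GCGCA and GCGC with 1 base of any kind between them, was in 11.6% of member windows, 6.28% of all windows and 11.3% of those of tested genes. At least 1 of these 3 motifs was in 43 member windows, or 62.3%, against 17.0% of all and 29.6% of tested-gene windows, and no ETS match overlapped a YY1 match. TATAAA, the TATA box, was in 2.90% of member windows, 11.95% of all windows and 6.26% of those of tested genes, and CCAAT in 28.99%, 35.7% and 36.2%. GGGCGG, a GC box, was in 60.9% of member windows, above the 44.6% of all windows and below the 67.1% of tested-gene windows. These matches describe letters and are not measured binding sites.

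The position of the genes was examined next. The members lay on 21 chromosomes in GENCODE 29. For 17 of the 78, or 21.8%, another protein-coding gene started on the opposite strand and ran away from the member within 1000 bases, against 7.38% of 19909 protein-coding genes. That background includes genes that were not tested here, and the share among tested genes was not computed. The median distance of these starts was 43 bases. MRPL46 and MRPS11 face away from each other with starts 34 bases apart in GENCODE 29, whereas the starts that RefSeq annotates for them lie further apart. MRPL36 is paired in this way with NDUFS6 and MRPL47 with NDUFB5, both of which encode parts of respiratory complex I. The 16 partner genes tested include MRPL46 and MRPS11, each as the partner of the other. None of the 16 had a P value under 0.05 in edgeR's quasi-likelihood test (3.53% of all genes). None passed the adjusted threshold with the replicate number as a block (3.23% of all genes). The median log2 fold change of the partners was 0.01.

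RSEM assigned transcripts to all members in OCI-AML5, although MRPL53 and MRPS24 had very few gene counts, as described below. TPM, the share of transcripts that RSEM estimated for a gene, is scaled by transcript length and was used to compare levels between genes. The members together made up 7784, 7369 and 7298 TPM in DMSO replicates 1, 2 and 3 and 7541, 7320 and 7342 TPM in S767 replicates 1, 2 and 3. The means were 7484 ± 262.5 TPM in DMSO and 7401 ± 122 TPM in S767 (SD, n = 3 each), between 0.730 and 0.778% of all TPM. DMSO replicate 1 held the highest sum, and the ranges of the groups overlapped. In DMSO, mean levels ran from 15.7 TPM for MRPL50 to 300.2 TPM for MRPL4, a 19.1-fold range, with a median of 73.8 TPM. The median in S767 was 73.4 TPM.

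The highest level belonged to MRPL4, a large-subunit protein with a bacterial counterpart. Its TPM values were 304.0, 299.8 and 296.7 in DMSO and 289.6, 295.5 and 286.4 in S767. MRPL33 followed at 306.3, 274.2 and 264.8 TPM in DMSO and 302.8, 262.7 and 287.1 TPM in S767, so its libraries overlapped those of MRPL4 in both groups and the order of these neighbours was within their spread. MRPL12, the stalk protein that also binds the mitochondrial RNA polymerase, had 248.8 ± 8.34 TPM in DMSO and 249.4 ± 3.71 TPM in S767. Its gene counts were far below its RSEM counts, as described below, so its place in the order is uncertain. The mitochondria-specific MRPL41 had 245.6 ± 8.95 and 249.5 ± 2.79 TPM, and MRPS34 of the small subunit 239.8 ± 4.51 and 240.7 ± 8.26 TPM (SD, n = 3 each). These 3 genes also overlapped one another.

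At the other end of the order were MRPL50, MRPS17, MRPS31, MRPL30 and MRPS36. MRPL50 had 16.4, 14.8 and 15.9 TPM in DMSO and 15.7, 13.6 and 15.3 TPM in S767, below every library of every other member. MRPS17 averaged 21.0 ± 0.777 TPM in DMSO, MRPS31 23.9 ± 0.287, MRPL30 25.7 ± 0.142 and MRPS36 26.2 ± 2.50 (SD, n = 3). The libraries of MRPS17 stayed below those of MRPS31 in DMSO, whereas the values of MRPL30 fell within the range of MRPS36. MRPS17 also had far fewer gene counts than RSEM assigned.

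Large-subunit proteins with a bacterial counterpart had a median of 98.8 TPM in DMSO (30 genes) and those specific to mitochondria 56.4 TPM (21 genes). For the small subunit the medians were 71.8 TPM (16 genes) and 70.1 TPM (10 genes). Across the 78 genes, mean DMSO TPM and the effective transcript length used by RSEM had a Spearman coefficient of -0.54, a description across genes that share libraries and a length-scaled unit. The order of members was nearly the same in both groups (Spearman coefficient 0.998 between the group means). The median coefficient of variation over the DMSO libraries was 3.86%, and the highest of any member was 9.54%.

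S767 was then compared with DMSO for each member to ask whether transcripts of the mitochondrial ribosome changed in cells exposed to the compound. Each value below is a log2 fold change of S767 over DMSO from edgeR's quasi-likelihood test on the reverse-strand counts, fitted on 20725 genes with Benjamini-Hochberg adjustment over all of them, and 77 members were tested. No member passed an adjusted p of 0.05, as against 0.00483% of all genes tested, and none did so by limma-voom or DESeq2. These fits leave out the replicate number, and with it as a block 1 member, MRPS30, passed, against 3.23% of all genes. At an unadjusted P value under 0.05, 0 members were higher (2.03% of all genes) and 1 was lower (1.51% of all genes), with 3.53% of all genes called in either direction. By limma-voom also 1 member passed in either direction and by DESeq2 0. The log2 fold changes ran from -0.10 for MRPL10 to 0.06 for MRPL37, a change of -6.97% to 4.23% in level. Their median was -0.0023, beside -0.00024 for all genes, with 36 members above 0 and 41 below. A change no larger than that of MRPL10 was also found for 62.6% of all genes tested and for 90.5% of the 9195 genes with a mean of at least 10 CPM, fragments counted on a gene relative to the library's total, a level that 72 members reached. In bulk RNA, fewer cells and less RNA per cell cannot be told apart, and values relative to the library total do not measure the amount of RNA per cell.

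**Figure D1:**
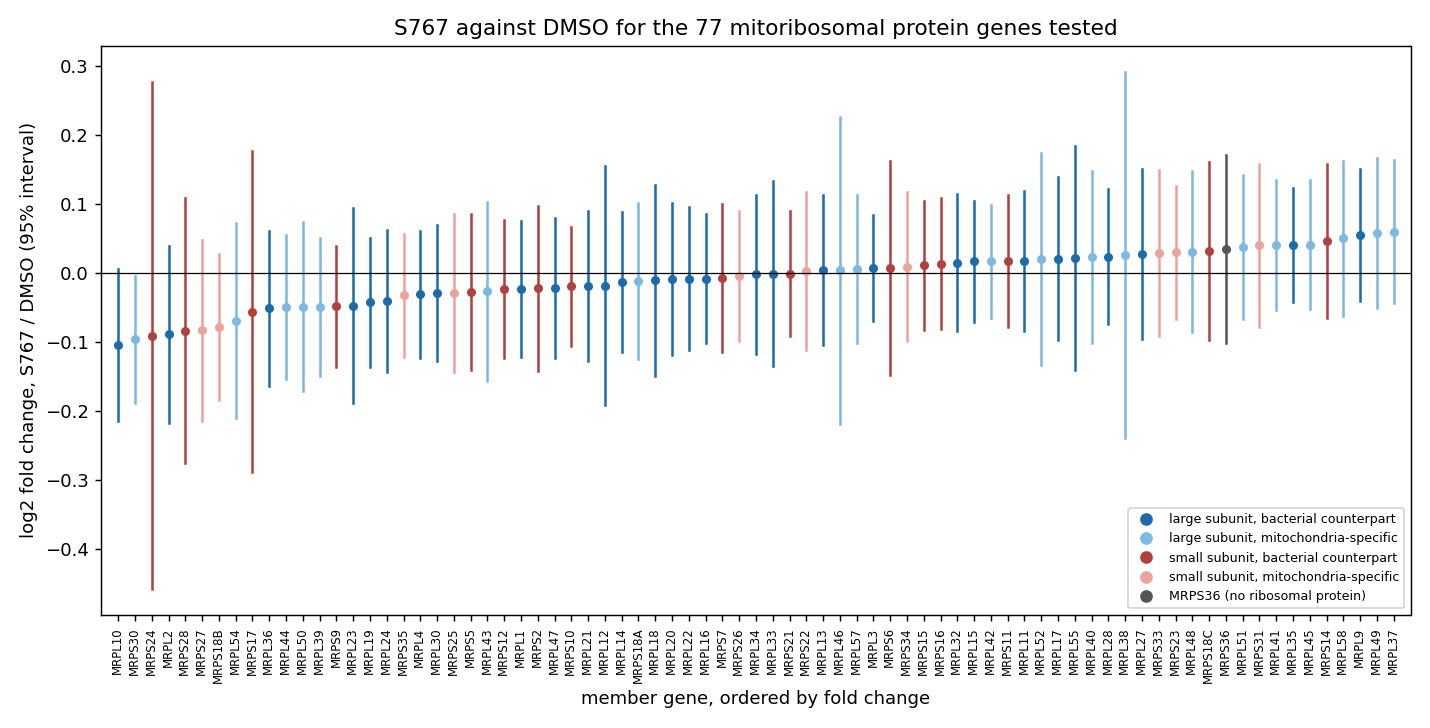
Log2 fold change of S767 over DMSO (y axis) for the 77 member genes tested, ordered along the x axis, with points for the edgeR estimate, bars for its 95% interval and colours for the subunit and the presence of a bacterial counterpart. Estimates run from -0.10 (MRPL10) to 0.06 (MRPL37), and the bar of MRPS30 alone stays off 0.

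The precision of the estimates was high for most members. The 95% interval of the log2 fold change lay within 0.2 of 0 on both sides for 68 of the 77 members and within 0.3 for 76. MRPS24 was the exception, with an interval from -0.46 to 0.28, and its counts are described below. The median standard error was 0.048. These values leave out the replicate number. With it as a block the median standard error was 0.030, and 76 intervals lay within 0.2 of 0. Over the members, the median size of the log2 fold change was 0.027, whereas the median range of log2 CPM among the 3 DMSO libraries was 0.11, and this range exceeded the fold change in 69 of 77 members.

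The medians of the subunit groups all lay within 0.02 of 0. The median was -0.0092 for the 30 conserved large-subunit genes, 0.02 for 20 mitochondria-specific large-subunit genes tested, -0.01 for the 16 conserved small-subunit genes and -0.00096 for the 10 mitochondria-specific small-subunit genes. Members above 0 numbered 11 of 30, 13 of 20, 6 of 16 and 5 of 10 in these groups. The one member with a P value under 0.05 was in the mitochondria-specific large-subunit group.

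That member was MRPS30 (ENSG00000112996.11, chr5:44808925-44820428, plus strand in GENCODE 29), also named PDCD9, a mitochondria-specific protein that sits in the large subunit despite its symbol. Its TPM values were 48.0, 46.5 and 47.9 in DMSO and 45.8, 42.0 and 43.4 in S767. In CPM it had 67.6, 65.1 and 68.0 in DMSO and 63.5, 60.4 and 63.8 in S767. Every S767 library was below every DMSO library on both scales. The log2 fold change was -0.10 ± 0.040 (SE), with a P value of 0.042 and an adjusted p of 1.00 in edgeR's quasi-likelihood test, and the exact permutation test of log2 CPM gave p = 0.1, the smallest value that 3 libraries against 3 allow. With the replicate number as a block the log2 fold change was -0.10 ± 0.024 and the adjusted p 0.049, by which 3.23% of all genes were called, 1.08% lower and 2.16% higher. The adjusted p with the block was 0.057 in limma-voom and 0.057 on RSEM expected counts. Without the block the P value rose to 0.096 without DMSO replicate 1, 0.120 without DMSO replicate 3, and 0.058, 0.150 and 0.057 without S767 replicates 1, 2 and 3, so the call depended on each of these libraries. The direction was kept in each case.

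The lowest estimate was that of MRPL10 (ENSG00000159111.13, chr17:47823272-47831534, minus strand), the conserved protein at the base of the ribosomal stalk. Its TPM values were 28.3, 28.1 and 28.5 in DMSO and 26.4, 26.9 and 25.1 in S767. In CPM the values were 34.3, 34.4 and 33.5 in DMSO and 31.0, 33.4 and 30.7 in S767, and the groups did not overlap. Its log2 fold change of -0.10 ± 0.048 had a P value of 0.061 in edgeR, and 0.0039 with the block (adjusted p 0.079). MRPL39, a mitochondria-specific large-subunit protein named after its values were seen, was the third member whose CPM groups did not overlap, with 26.4, 25.9 and 25.8 CPM in DMSO and 25.4, 24.8 and 25.3 CPM in S767. In all, 3 members were lower in this sense (4.08% of all genes) and 0 higher (5.12% of all genes). On the TPM scale, 10 members were lower without overlap (4.55% of all genes) and 1 higher (3.31% of all genes). In limma on log2(TPM + 1), 7 members were lower at a P value under 0.05, against 2.98% of all genes, and none of these passed an adjusted p. On that scale the median was -0.02 for the members and -0.0061 for all genes.

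With the replicate block, 5 members were lower at an unadjusted P value under 0.05 (7.39% of all genes) and 1 was higher (9.38% of all genes). Besides MRPS30 and MRPL10, these were MRPL2, MRPS27, MRPS18B and, higher, MRPL37, of which MRPS27 was named after its values were seen. MRPL2, a conserved protein next to the catalytic centre, had 36.5, 38.4 and 36.7 CPM in DMSO and 32.5, 36.8 and 35.7 CPM in S767. MRPS27, a mitochondria-specific small-subunit protein with pentatricopeptide repeats, had 128, 140 and 134 CPM in DMSO and 117, 135 and 128 CPM in S767. MRPS18B had 60.0, 60.9 and 58.5 CPM in DMSO and 53.5, 59.0 and 57.3 CPM in S767. For each of these 3 genes the groups overlapped in CPM, and every S767 library was below the DMSO library of its own number. On the TPM scale the groups of MRPS18B did not overlap. MRPL37, specific to mitochondria, had 126, 134 and 130 CPM in DMSO and 129, 142 and 135 CPM in S767, higher within each number. The blocked log2 fold changes were -0.09 for MRPL2, -0.08 for MRPS27, -0.08 for MRPS18B and 0.06 for MRPL37 in edgeR. Their P values were 0.012, 0.0042, 0.019 and 0.023, with adjusted p of 0.149, 0.083, 0.187 and 0.205.

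**Figure D2:**
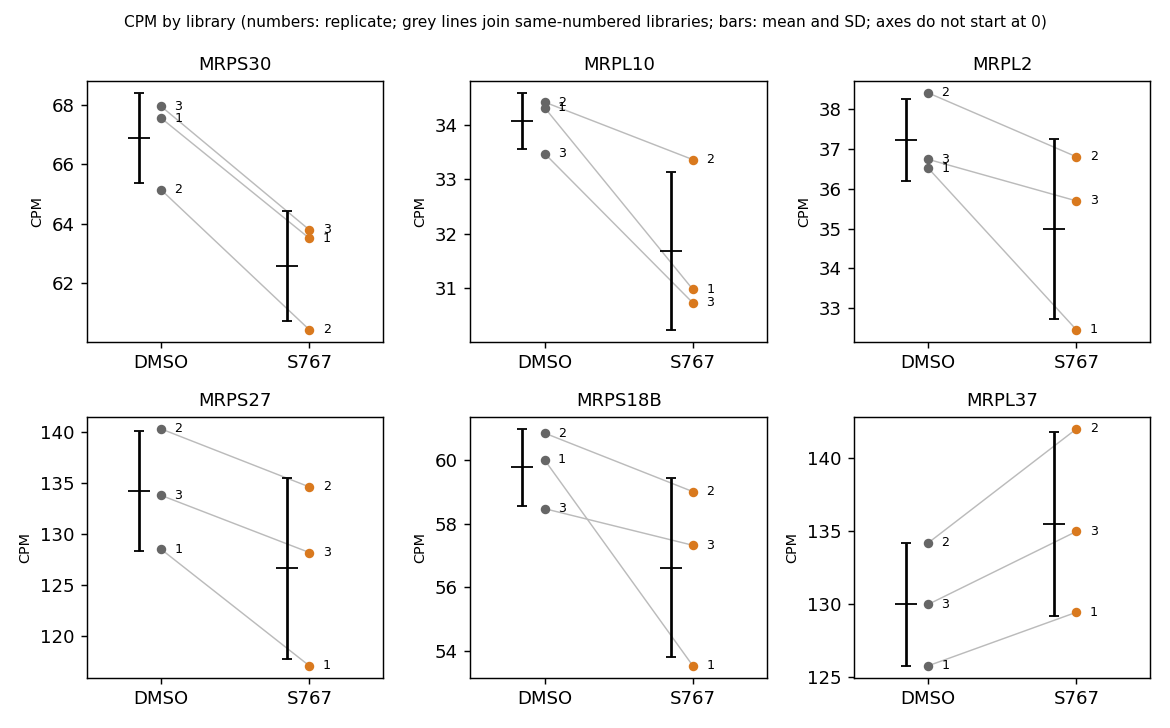
CPM in every library (y axes, which do not start at 0) for MRPS30, MRPL10, MRPL2, MRPS27, MRPS18B and MRPL37, with points for libraries, digits for replicate numbers, grey lines between libraries of the same number and bars for the mean and SD of 3 libraries. The lines fall in all 3 replicates for the first 5 genes and rise in all 3 for MRPL37, while the groups are apart only for MRPS30 and MRPL10.

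The other members at the ends of the order did not pass a P value of 0.05 in edgeR without the block. MRPS24, at -0.09, and MRPS28, at -0.08, completed the 5 lowest estimates with MRPL10, MRPS30 and MRPL2. Both had far fewer gene counts than RSEM assigned. The 5 highest were MRPL37 at 0.06, MRPL49 at 0.06, MRPL9 at 0.05, MRPL58 at 0.05 and MRPS14 at 0.05, with P values from 0.225 to 0.377. MRPL58 is a peptidyl-tRNA hydrolase built into the large subunit that can release stalled chains.

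Members with a particular role were also near 0. MRPL45, which holds the ribosome at the inner membrane, had a log2 fold change of 0.04 (95% interval -0.05 to 0.13), and MRPL44, related to ribonuclease III, one of -0.05 (-0.15 to 0.06). For MRPS12 of the decoding centre it was -0.02 (-0.12 to 0.08). MRPL32, whose precursor is processed by the m-AAA protease, gave 0.01 (-0.08 to 0.11).

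The paralogs MRPS18A, MRPS18B and MRPS18C are built into different places of the ribosome. MRPS18A of the large subunit had 43.5 ± 1.16 TPM in DMSO and 42.4 ± 0.761 TPM in S767. MRPS18B, specific to mitochondria in the small subunit, had 63.4 ± 0.733 and 58.9 ± 1.17 TPM, and MRPS18C, the counterpart of the bacterial protein, 60.4 ± 1.81 and 61.0 ± 3.34 TPM (SD, n = 3 each). The log2 fold changes were -0.01 (95% interval -0.13 to 0.10) for MRPS18A, -0.08 (-0.18 to 0.03) for MRPS18B and 0.03 (-0.10 to 0.16) for MRPS18C. The intervals of the 3 paralogs overlapped.

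In structures of the human small subunit, MRPS16, MRPS25 and MRPS18C take part in binding iron-sulfur clusters. The study followed cellular metals under S767, and these genes were therefore read separately. MRPS16 had 102, 105 and 101 CPM in DMSO and 99.1, 108 and 104 CPM in S767, with a log2 fold change of 0.01 (95% interval -0.08 to 0.11). MRPS25 had 148, 135 and 142 CPM in DMSO and 144, 131 and 141 CPM in S767, with a log2 fold change of -0.03 (-0.14 to 0.08). For both genes the groups overlapped, as they did for MRPS18C. MRPS36, the gene outside the ribosome, had a log2 fold change of 0.03 (-0.10 to 0.17).

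The direction of most members in CPM differed between the replicate numbers. Within replicate number 1, 70 of the 77 members were lower in S767 than in DMSO, with a median log2 ratio of -0.06 in CPM. Within number 2, 44 members were higher, with a median of 0.02, and within number 3, 57 were higher, with a median of 0.04. The medians over all genes tested were 0.0056, 0.0010 and 0.0011 in the same pairs. The SD of the 3 member medians in CPM was 0.05. In TPM the member medians were -0.05, -0.0087 and 0.0022, with 67, 42 and 37 of the 78 members lower. The TPM medians over the genes tested were 0.02, -0.03 and -0.03. Of the 77 members, 13 were lower in CPM in all 3 pairs and 3 were higher in all 3. The shares of all genes for these counts were not computed, so they are not read as few or many.

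**Figure D3:**
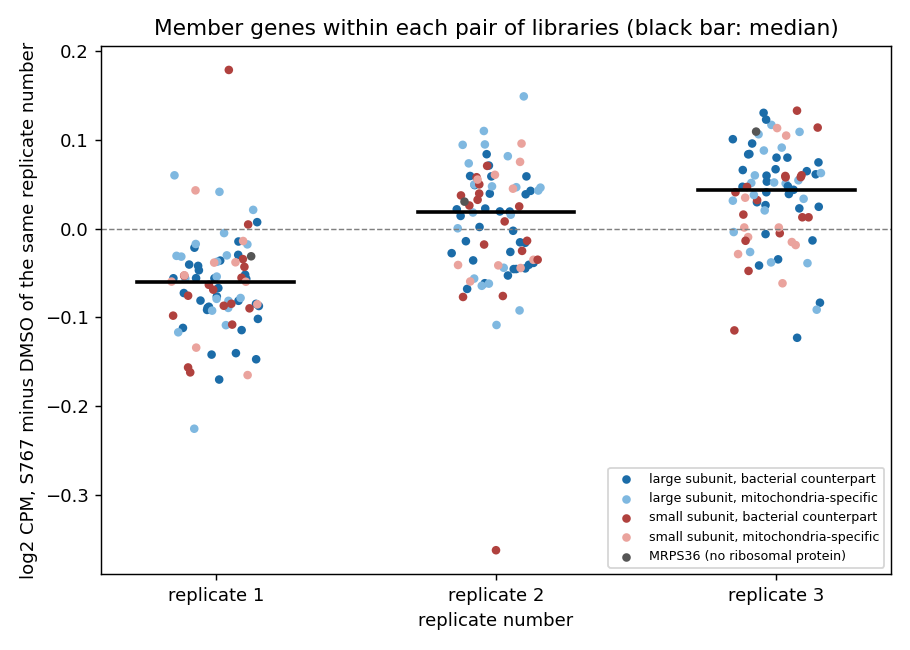
Log2 ratio of S767 to DMSO CPM (y axis) between libraries of the same replicate number (x axis), with 1 point for each of the 77 members, coloured by subunit, and a black bar at the median. Medians lie at -0.06, 0.02 and 0.04 in replicates 1, 2 and 3, and most points lie below 0 in replicate 1 only.

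Single libraries of 1 group also differed in the level of the members. Relative to each gene's mean over the 6 libraries, the median member stood at 0.04 in DMSO replicate 1, 0.0035 in DMSO replicate 2 and -0.04 in DMSO replicate 3 on the log2 CPM scale. In S767 the same medians were -0.02, 0.02 and 0.0021. DMSO replicate 1 was above the mean for 67 of 77 members, and DMSO replicate 3 for 16. Over all genes tested these medians were between 0.00091 and 0.0067. The median fold change of the members was 0.02 without DMSO replicate 1 and -0.03 without DMSO replicate 3, and no member passed an adjusted p in either case. With the replicate block and number 1 left out, 14 members were higher at a P value under 0.05 (11.3% of all genes) and 3 lower (9.89% of all genes), and 4 passed an adjusted p (9.86% of all genes). The 4 were MRPL27 at 0.09, MRPL49 at 0.10, MRPL9 at 0.09 and MRPS30 at -0.10 on the log2 scale, named after their values were seen. With number 3 left out, 0 were higher (7.61% of all genes), 8 were lower (5.81% of all genes) and MRPL54, at -0.14 and also named after its values were seen, passed an adjusted p (3.06% of all genes). Each of these blocked fits rests on only 2 pairs of libraries. The share of all genes past an adjusted p moved from 0.113% without number 2 to 9.86% without number 1, so these calls are unstable. Libraries of the same number varied together over 6191 genes. The correlations of their deviations from the group means were 0.78, 0.87 and 0.75 for numbers 1, 2 and 3. Whether the replicate numbers stand for shared handling was not tested, because neither the labels nor the methods say what they mark.

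For 9 members the 2 kinds of count differed by more than 1.5 times. The gene counts hold only fragments that STAR placed on 1 gene, whereas RSEM divides ambiguous fragments between genes. Over the 6 libraries, the reverse-strand counts of MRPL53 were 0.023% of the RSEM expected counts, those of MRPS24 0.84%, of MRPL38 3.27%, of MRPL12 8.66% and of MRPL46 17.3%. For MRPS28, MRPL23, MRPS17 and MRPS6 the values were 21.0%, 28.4%, 30.4% and 57.1%. The other 69 members lay between 69.0 and 118%. In GENCODE 29, exons of 8 of the 9 overlapped another gene of the same strand, such as URGCP-MRPS24 for MRPS24, CCDC142 for MRPL53 and AC139530.2 for MRPL12, where 68.2% of the exonic bases are shared. MRPL23 had no such overlap, and 61 of the other 69 members had none.

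**Figure D4:**
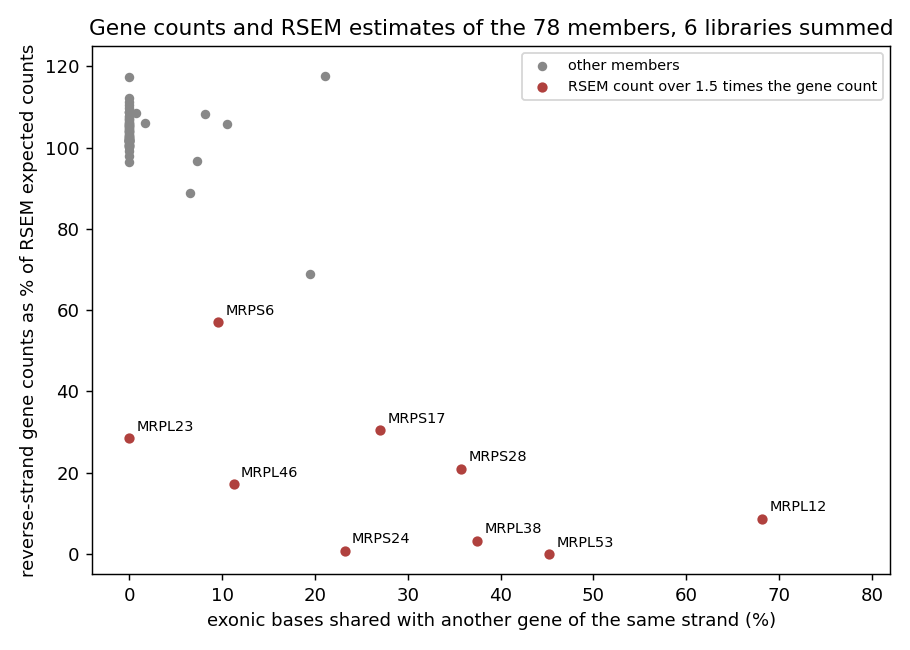
Reverse-strand gene counts as a percentage of RSEM expected counts, summed over 6 libraries (y axis), against the percentage of exonic bases that another gene of the same strand shares in GENCODE 29 (x axis), 1 point per member. The 9 labelled genes in red have RSEM counts more than 1.5 times the gene counts, and 8 of them share exonic bases.

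MRPL53 shows the consequence for single values. Its reverse-strand counts were at most 3 in any library, so it was not tested, while RSEM gave it 105.7, 91.8 and 94.8 TPM in DMSO and 101.5, 96.6 and 94.4 TPM in S767. MRPS24, which had 0.522, 0.599 and 0.584 CPM in DMSO and 0.592, 0.464 and 0.539 CPM in S767, stood at 193.0, 182.7 and 181.2 TPM and at 184.8, 187.3 and 183.5 TPM. How RSEM divided the fragments decides these levels, and they are uncertain. The levels of MRPL12 and MRPS17, among the highest and the lowest members, also rest on RSEM counts well above the gene counts. On RSEM expected counts, edgeR gave all 9 members log2 fold changes between -0.06 and 0.01, with 95% intervals inside -0.17 to 0.15. MRPS24 moved to 0.0062 (-0.09 to 0.11) and MRPL53 had 0.01 (-0.13 to 0.15). Over all 78 members on RSEM counts, estimates ran from -0.10 to 0.06 with a median of -0.0037. On those counts 0 members passed an adjusted p and 1, again MRPS30, had a P value under 0.05. Strand mattered for fewer members. Counts on the opposite strand were a median of 0.44% of both strands and exceeded 10% for MRPS18C (28.4%), which overlaps ABRAXAS1 on the other strand, and MRPS25 (10.3%), which overlaps NR2C2.

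Genes that work with the members were read from lists of known roles. The 5 ribosomal proteins whose symbols do not begin with MRP were DAP3, AURKAIP1, CHCHD1 and PTCD3 of the small subunit and GADD45GIP1 of the large. Their log2 fold changes lay between -0.05 and 0.02. On the gene counts 0 of 5 had a P value under 0.05 in edgeR, without or with the block. On RSEM counts with the block DAP3 was lower, at -0.07 (P value 0.010 and adjusted p 0.137 in edgeR), as were 7.90% of all genes. In limma-voom with the block its P value was 0.042 (adjusted p 0.280). Of 26 assembly and rRNA modification factors, 0 had a P value under 0.05 in either direction on the gene counts without the block. Their median log2 fold change was -0.0019. Of 16 translation factors 0 had such a P value, with a median of 0.00069. For 4 assembly factors and 2 translation factors the RSEM counts were more than 1.5 times the gene counts, and the gene counts of MRM2 and TSFM were 1.26% and 0.83% of the RSEM counts. On RSEM expected counts, 1 assembly factor was higher at a P value under 0.05 in edgeR and 0 were lower. It was MRM2, an rRNA methyltransferase, named after its values were seen. RSEM gave it 58.1, 54.0 and 53.8 TPM in DMSO and 60.9, 59.8 and 58.1 TPM in S767. The groups overlapped, and its log2 fold change on RSEM counts was 0.12 (95% interval 0.02 to 0.22), with a P value of 0.027 without the block and 0.0027 with it (adjusted p 1.00 and 0.074). None of the translation factors passed on RSEM counts without the block. With it, 3 assembly factors were lower and 1 higher at an unadjusted P value under 0.05 in edgeR, and 4 translation factors lower and 1 higher. In that fit 7.90% of all genes were lower and 9.72% higher. An adjusted p under 0.05 was reached there by 1 assembly factor, MRM1 (adjusted p 0.027), and by 0 translation factors.

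With the replicate block, 1 assembly factor passed an adjusted p. MRM1, a methyltransferase that modifies the large mitochondrial rRNA, had 32.0, 27.0 and 29.2 CPM in DMSO and 27.99, 23.9 and 26.95 CPM in S767. The groups overlapped, and each S767 library was below the DMSO library of its number. The log2 fold change was -0.16 ± 0.079 with a P value of 0.072 without the block and -0.16 ± 0.030 with an adjusted p of 0.014 with it, in edgeR. At an unadjusted P value under 0.05 with the block, by which 7.39% of all genes were lower and 9.38% higher, AFG3L2 was also lower among assembly factors, and among translation factors MTIF2 was higher and GUF1, MRRF and SLIRP were lower, all named after their values were seen, and 0 of these passed an adjusted p.

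The ribosomal RNAs of the mitochondrial ribosome, which selection for poly(A) captures in part, were the last genes read. MT-RNR1 of the small subunit had 931, 1165 and 880 CPM in DMSO and 1007, 984 and 749 CPM in S767. MT-RNR2 of the large subunit had 5196, 7825 and 6193 CPM in DMSO and 5898, 7250 and 5703 CPM in S767. For both the groups overlapped, with log2 fold changes of -0.12 (95% interval -0.42 to 0.18) and -0.03 (-0.36 to 0.30). With the block MT-RNR1 had -0.12 (-0.23 to -0.0078) with a P value of 0.038 and an adjusted p of 0.263 in edgeR. Its log2 CPM ratios of S767 to DMSO within replicate numbers 1, 2 and 3 were 0.11, -0.24 and -0.23. It was thus higher in S767 in number 1, and the ratios spread wider than that interval. The adjusted p of MT-RNR1 with the block was 0.190 on RSEM counts and 2.2e-05 without a filter on low counts, so its call changed with the filter.

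As a check of the label, 7 myeloid marker genes summed to 528 to 583 TPM in DMSO and 520 to 587 TPM in S767. The lowest of them was CSF2RA, with a mean of 3.07 TPM in DMSO and 0 gene counts in every library, so it was not tested. The 12 markers of other cell types summed to 2.62 to 4.17 TPM in DMSO and 2.88 to 3.86 TPM in S767, with 11 below 1 TPM and CD3E and KRT18 listed at 0. The exception was PECAM1, with a mean of 2.66 TPM in DMSO, near the level of CSF2RA. Of the myeloid markers, CD33 passed an adjusted p with the block, as did 3.23% of all genes, and 0 did without it. Its blocked log2 fold change was 0.11 (adjusted p 0.024 in edgeR). CEBPA and MPO were lower at an unadjusted P value under 0.05 with the block (7.39% of all genes). Their log2 fold changes were -0.07 and -0.07, with adjusted p of 0.121 and 0.234 in edgeR. These markers were named after their values were seen. Gene counts ranged from 149994700 to 258029564 per library, 79.3 to 80.3% of fragments, and no library was a repeat of another.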

How the data were processed

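OCI-AML5 RNA was sequenced in 3 DMSO and 3 S767 libraries. Per the submitters' processing notes, the authors used STAR 2.7.1a, RSEM 1.2.28 and GRCh38, and their methods describe read trimming with Trimmomatic and name another RSEM version. Which version made the files was not settled. The annotation release is not given in the sources used here. The authors deposited fragment counts per gene for each strand, without normalization, and RSEM tables with expected counts, which are estimates, and TPM, scaled by the authors' software to the same total in each library. Counts on the forward strand were 6.44 to 6.58% of both strands, so reverse-strand counts were used. Lines that name no gene held 19.7 to 20.7% of fragments and were left out. Groups follow the treatment given in each sample's title.

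Symbols and positions came from GENCODE 29 (58457 of 60609 identifiers, 60590 with a symbol from any table). For 62 of the 78 members the files hold another version of the identifier. Genes were kept with filterByExpr (minimum count 10), scaled with TMM and tested with edgeR's quasi-likelihood method (edgeR 4.0.16, R 4.3.3). Adjusted p are Benjamini-Hochberg values over 20725 genes. CPM values use TMM sizes, intervals are 95% intervals of the fitted log2 fold change, and log2 CPM for permutation and pairs has a prior count of 2. Alternatives used limma 3.58.1 (voom, and trend on log2(TPM + 1) and log2(TPM + 0.1)), DESeq2 1.42.0, other scaling and filters, RSEM expected counts rounded to whole numbers, and each library left out. The test was checked on simulated data whose planted changes were far larger than those of the members. That check does not show whether changes as small as theirs would be found. At these depths the spread between libraries, not counting error, limits most members.

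Libraries with the same replicate number deviated together from their group means. Over the 6191 genes whose mean log2 CPM exceeded 5, the correlation was 0.78, 0.87 and 0.75 in the same-numbered pairs and negative in all others. The pairing comes from these values alone. The members, gene lists and motifs were chosen with earlier results of these data known. Named members are those with a P value under 0.05, those called with the block, the 5 highest and 5 lowest levels and fold changes, members chosen for their role, and members whose kinds of count differ by over 1.5 times or that were not tested. Others are said to be named after their values were seen. Sequences are from RefSeq.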

Additional observations from a re-analysis of the deposited data

How the results depend on the processing

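The median fold change of the members ran from -0.03 to 0.02 with single libraries left out and no block. With the replicate block it was 0.030, -0.012 and -0.035 without replicates 1, 2 and 3. Under each alternative it stayed within 1 SD of the 3 pair medians, 0.05, of its main value. That limit is loose, because it is wider than the median size of the member fold changes, 0.027. Adjusted calls over all genes numbered 1 without the block, and 25 in DESeq2, 9 without a filter on low counts, 0 on log2(TPM + 1) and log2(TPM + 0.1), and 1 to 2 with a library left out. With the replicate block there were 670, and 609 in limma-voom, 1348 without a filter, 394 on RSEM counts, 617 on library size alone, and 2034, 24 and 636 without replicates 1, 2 and 3. Shares of all genes called under the same alternative follow in brackets. Member calls past an adjusted p were 0 without the block, 1 with it (3.23%), 3 without a filter (MRPL10, MRPS27 and MRPS30, 3.82%), 1 on library size alone (2.98%), and 0 to 4 with a replicate left out (0.113 to 9.86%). Members higher at an unadjusted P value under 0.05 were 1 with the block (9.38%), in limma-voom (9.24%), on RSEM counts (9.72%) and on library size alone (8.76%), 2 without a filter (6.42%), 0 to 14 with a replicate left out (4.88 to 11.3%), and 0 to 1 without the block and a library left out (1.33 to 2.60%). Members lower were 0 in DESeq2 (1.2%) and without a filter (1.45%), 7 on log2(TPM + 1) (2.98%), 8 on log2(TPM + 0.1) (3.01%), 0 to 1 with a library left out (0.949 to 2.31%), and with the block 5 (7.39%), 5 in limma-voom (7.30%), 5 on library size alone (7.91%), 6 without a filter (5.15%), 7 on RSEM counts (7.90%) and 3 to 8 with a replicate left out (4.06 to 9.89%). The cause was not tested. Among the named members, the block changed the adjusted call of MRPS30 only.

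MRPS30 missed a P value of 0.05 in DESeq2 (0.050154), on library size alone (0.063) and without a filter (0.068). Estimates that changed sign, 71 in all and in 17 named members, were at most 0.06 in size after the change. The main estimates of these members were up to 0.09 in size. On RSEM counts without and with the replicate block, MRPL12 had 0.015 and 0.015, MRPL33 0.00078 and 0.0030, MRPL38 -0.019 and -0.019, MRPS24 0.0062 and 0.0055 and MRPS6 -0.0065 and -0.0054. On log2(TPM + 1) and log2(TPM + 0.1), MRPL12 had 0.0038 and 0.0038, MRPL33 0.013 and 0.013, MRPL38 -0.026 and -0.027, MRPL46 -0.0098 and -0.010, MRPS36 -0.020 and -0.021 and MRPS6 -0.013 and -0.013. MRPL33 had 0.0024 in limma-voom, 0.00035 without a filter, 0.0014 without regard to strand, 0.00012 with the replicate block, 0.00092 with the block in limma-voom and 0.0020 with the block and no filter. MRPS18A had 0.0073 without regard to strand. With the replicate block, signs changed without replicate 1 to MRPL12 0.017, MRPL33 0.029, MRPL4 0.0021, MRPL46 -0.026, MRPS12 0.019, MRPS18A 0.040. They changed without replicate 2 to MRPL33 0.020, MRPL38 -0.030, MRPS16 -0.0032, MRPS24 0.031, MRPS34 -0.028, MRPS6 -0.026. They changed without replicate 3 to MRPL32 -0.019, MRPL46 -0.013, MRPS14 -0.0021, MRPS18C -0.012, MRPS36 -0.0036, MRPS6 -0.013. With single libraries left out and no block, the ranges of members that changed sign were MRPL12 -0.083 to 0.022, MRPL32 -0.016 to 0.045, MRPL33 -0.045 to 0.057, MRPL38 -0.050 to 0.10, MRPL46 -0.037 to 0.074, MRPS12 -0.052 to 0.0072, MRPS16 -0.017 to 0.044, MRPS17 -0.13 to 0.023, MRPS18A -0.033 to 0.024, MRPS25 -0.063 to 0.0098, MRPS34 -0.037 to 0.035, MRPS36 -0.0079 to 0.086, MRPS6 -0.046 to 0.063.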
